A study of Mus musculus with 75 samples.

Results

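The 6 genes Mab21l1, Got1l1, Ppm1m, Crb2, Med12 and Myo5c were followed, out of 32601 gene identifiers shared by all RNA files. They were chosen by a readout of these same libraries: each was higher in Dnmt3a1-/- than in wild type samples of cerebral cortex, of hippocampus and of NeuN-sorted cortical neuron nuclei. Those 3 comparisons therefore describe the genes and test nothing about them. The study sequenced RNA of C57BL/6 mice at postnatal day 21, and 26 RNA libraries in 10 groups were used here. The cortex groups were Dnmt3a1-/- (3 libraries) with wild type libraries 1 to 3, Dnmt3a1_delta_N (3) with wild type libraries n1 to n3, and Dnmt3a2-/- (2) with wild type libraries r1 and r2. Each genotype, Dnmt3a1-/- and wild type, had 3 libraries of hippocampus and 2 of nuclei. The mutations stand in the labels as the animals' genotypes, with no Cre driver named, and nothing in the labels tells whether each library is an animal of its own. p-values therefore measure only the spread between these libraries.

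DNMT3A places methyl groups on cytosines of DNA that were not methylated before. It exists as a long isoform, DNMT3A1, and as a short isoform, DNMT3A2, which starts from an internal promoter and lacks the N-terminal region of the long one. In neurons of the postnatal brain it also methylates cytosines outside CG dinucleotides, a mark that builds up over the first weeks of life. The 6 genes belong to unrelated families. Med12 is a subunit of the kinase module of Mediator, the complex that links transcription factors to RNA polymerase II. Crb2 is a Crumbs transmembrane protein of apical-basal polarity, and Myo5c is a class V myosin, an actin motor best known from epithelial and glandular cells. Ppm1m is a metal-dependent serine/threonine phosphatase, Got1l1 is a relative of the cytosolic aspartate aminotransferase Got1, and Mab21l1 is a MAB21 family protein needed for eye development.

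The DNA just before the transcription start of a gene is where CG methylation is most often set beside expression, so it is shown for the genes that the RefSeq promoter table (build GRCm38.p6) holds. Each run is the 250 bases before the start, 5′ to 3′ on the gene's own strand, in lower case with every CG dinucleotide in capitals. The intervals are chrX:101273841-101274090 (plus strand) for Med12, chr2:37775999-37776248 (plus) for Crb2, chr9:75231764-75232013 (plus) for Myo5c and chr9:106199234-106199483 (minus) for Ppm1m, for which the first of its listed starts is used.
Med12: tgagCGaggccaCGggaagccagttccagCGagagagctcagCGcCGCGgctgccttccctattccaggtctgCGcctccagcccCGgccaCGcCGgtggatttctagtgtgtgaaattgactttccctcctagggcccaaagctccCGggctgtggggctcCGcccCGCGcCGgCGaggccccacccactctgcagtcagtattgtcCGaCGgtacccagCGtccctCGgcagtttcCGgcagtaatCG
Crb2: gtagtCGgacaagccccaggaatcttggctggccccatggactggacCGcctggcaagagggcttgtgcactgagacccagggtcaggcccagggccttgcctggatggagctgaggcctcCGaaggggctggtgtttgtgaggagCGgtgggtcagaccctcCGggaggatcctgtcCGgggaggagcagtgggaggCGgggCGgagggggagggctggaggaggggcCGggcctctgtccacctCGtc
Myo5c: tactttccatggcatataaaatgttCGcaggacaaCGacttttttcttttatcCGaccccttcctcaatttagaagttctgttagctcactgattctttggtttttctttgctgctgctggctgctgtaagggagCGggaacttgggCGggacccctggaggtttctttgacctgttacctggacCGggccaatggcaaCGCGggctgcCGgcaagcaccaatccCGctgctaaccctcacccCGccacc
Ppm1m: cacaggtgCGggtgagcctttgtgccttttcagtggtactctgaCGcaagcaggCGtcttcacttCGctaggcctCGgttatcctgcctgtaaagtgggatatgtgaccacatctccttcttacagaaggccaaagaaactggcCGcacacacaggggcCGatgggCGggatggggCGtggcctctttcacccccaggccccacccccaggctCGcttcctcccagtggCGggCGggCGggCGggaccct
The Med12 run holds 22 CG dinucleotides, the Ppm1m run 14, the Myo5c run 11 and the Crb2 run 10. The median over 32841 promoters of the table was 6, and the share of promoters with fewer CG was 85.2% for Med12, 70.6% for Ppm1m, 64.4% for Myo5c and 62.2% for Crb2. All 4 thus lie in the CG-richer part of the table. The value of Ppm1m depends on the start used: the run before its other listed start holds 31 CG, more than 94.8% of promoters, with 77.6% GC and an observed to expected ratio of 0.868. The ratio of observed to expected CG, which allows for base content, was 0.817 for Med12, 0.638 for Myo5c, 0.568 for Ppm1m at its first start and 0.362 for Crb2, beside a median of 0.374. Crb2 was GC-rich (68.8%, median 52.4%), and its ratio was close to that median.

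**Figure D1:**
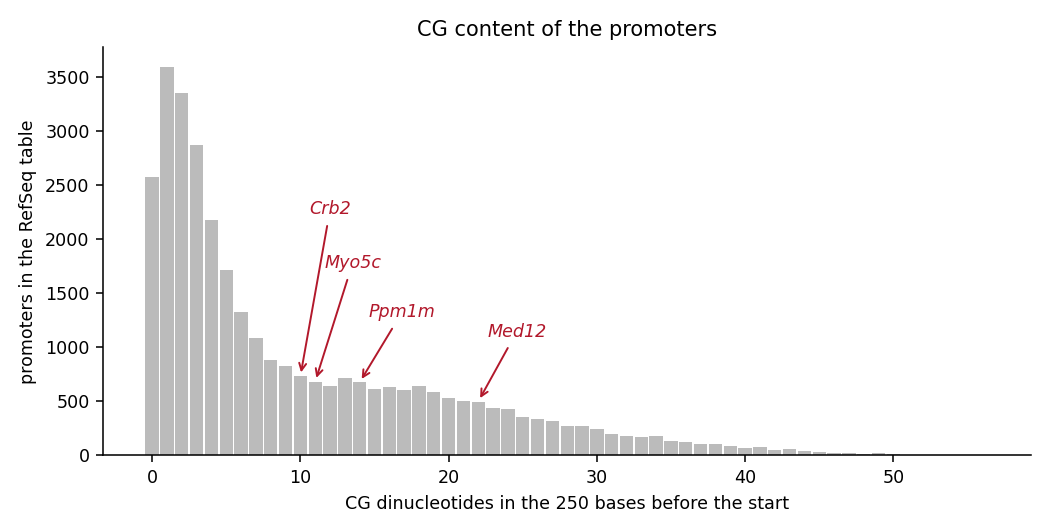
Number of CG dinucleotides in the 250 bases before the start (x axis) against the number of promoters in the RefSeq table (y axis, grey bars), with arrows at the 4 genes that have an entry (Ppm1m at its first listed start). The 4 genes sit at 10 to 22 CG, above the median of 6.

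The letters GGGCGG, the core of a GC box, were found on either strand in each of the 4 runs: 4 times in Ppm1m and once in Med12, Crb2 and Myo5c, with overlapping matches counted and every match containing a CG. They occur in 32.7% of all promoters of the same length. TATAAA was found once and CCAAT 2 times in Myo5c and neither was found in the other 3 runs, beside shares of 12.4% and 33.9% of all promoters. Matches of letters are descriptions of these windows, and no methylation data were analysed here.

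Library totals ran from 8.7 to 39.0 M gene counts (M, mega). Levels are given as CPM, the read count of a gene scaled to a fixed total of gene counts per library. Total Dnmt3a RNA fell by 1.02 on the log2 scale (SE 0.07) in Dnmt3a1-/- cortex and fell by 1.04 (SE 0.09) in Dnmt3a1-/- hippocampus (edgeR adjusted p = 1.16e-05 and 0.000112). In the nuclei labelled Dnmt3a1-/- it was 382 and 369 CPM beside 405 and 399 CPM in wild type nuclei, a log2 difference of -0.10 (SE 0.15, edgeR adjusted p = 0.894). The gene total did not separate the genotypes in nuclei as it did in tissue, so each nuclei result below rests on the labels. In bulk RNA, fewer cells of a type and less RNA per cell cannot be told apart. The nuclei carried little RNA of glia, with summed astrocyte markers of 505 to 711 CPM beside 13100 to 14900 CPM in the cortex libraries of wild type series 1 to 3 and Dnmt3a1-/-. Rbfox3, which encodes NeuN, was at 178 to 203 CPM in nuclei and 124 to 157 CPM in those cortex libraries.

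**Figure D2:**
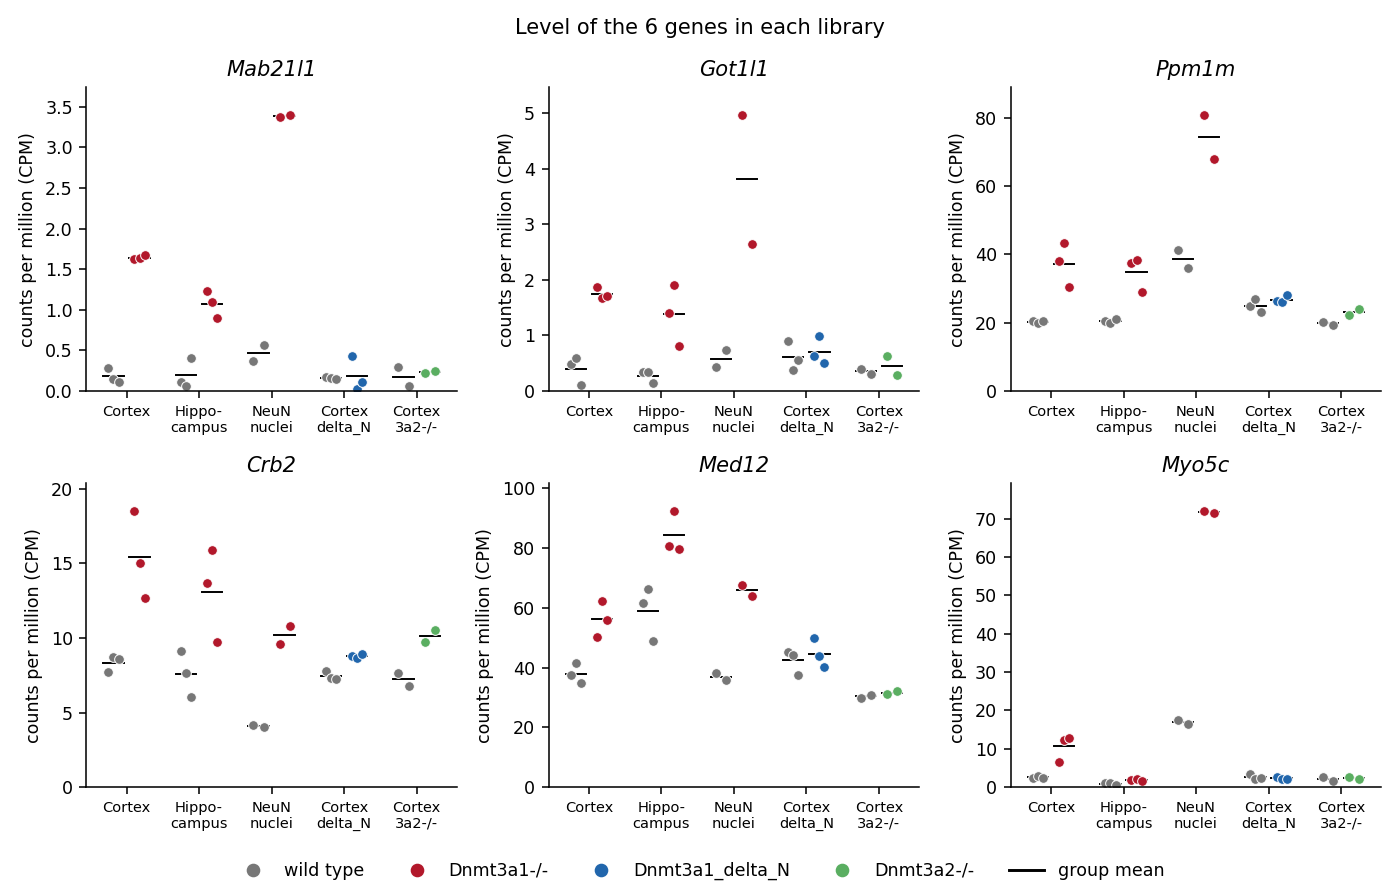
Level of each gene (y axis, CPM, from 0) in every RNA library, by comparison (x axis). Grey points are wild type libraries, coloured points are mutant libraries and the black lines are group means. In the first 3 positions of each panel every Dnmt3a1-/- library lies above its wild type libraries.

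Med12, on the X chromosome, had the smallest fold change of the 6 in each sample type. In cortex it was at 37.4, 41.4 and 34.8 CPM in wild type libraries 1 to 3 and at 50.4, 62.3 and 56.0 CPM in Dnmt3a1-/- libraries 1 to 3. In hippocampus it was at 61.7, 66.2 and 48.9 CPM in wild type and 80.8, 92.4 and 79.7 CPM in Dnmt3a1-/-. In nuclei it was at 38.2 and 35.8 CPM in wild type and 67.7 and 64.0 CPM in Dnmt3a1-/-. No mutant library fell within its wild type range. The log2 fold changes were 0.57 (SE 0.09) in cortex, 0.50 (SE 0.11) in hippocampus and 0.83 (SE 0.14) in nuclei. By reads of Xist and of Y-linked genes each group held 1 female library, and libraries of the same number had the same sex. The ratio of Med12 within such a pair was 1.35, 1.51 and 1.61 in cortex, where the second pair is female, and 1.31, 1.40 and 1.63 in hippocampus, so the ratio of the female pair lay between those of the male pairs in both tissues. Among wild type samples Med12 was highest in hippocampus (58.9 ± 8.94 CPM, SD, n = 3), whose files hold more gene identifiers (55487 beside 37310). Its levels in cortex libraries 1 to 3 (37.9 ± 3.34, n = 3) and nuclei (37.0 ± 1.74, n = 2) did not differ beyond their spread. This depends on the series: wild type cortex libraries r1 and r2 were at 30.4 ± 0.72 CPM and n1 to n3 at 42.4 ± 4.3 CPM.

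Crb2 was higher in Dnmt3a1-/- samples by a like factor in cortex and hippocampus and by a larger one in nuclei. Cortex held 7.69, 8.72 and 8.61 CPM in wild type and 18.5, 15.0 and 12.7 CPM in Dnmt3a1-/-. Hippocampus held 9.10, 7.68 and 6.07 CPM in wild type and 13.7, 15.9 and 9.73 CPM in Dnmt3a1-/-. The lowest mutant hippocampus library was close to the highest wild type one, the narrowest gap of this gene. Nuclei held 4.18 and 4.04 CPM in wild type and 9.60 and 10.8 CPM in Dnmt3a1-/-. The log2 fold changes were 0.86 (SE 0.13), 0.77 (SE 0.19) and 1.31 (SE 0.19) in cortex, hippocampus and nuclei. In wild type samples Crb2 was lower in nuclei (4.11 ± 0.0972 CPM) than in cortex (8.34 ± 0.565) and hippocampus (7.62 ± 1.52), and the tissues overlapped.

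Myo5c had the widest range between sample types. Its wild type level was 16.9 ± 0.631 CPM in nuclei (SD, n = 2), 2.61 ± 0.363 CPM in cortex and 0.883 ± 0.292 CPM in hippocampus (SD, n = 3 each), and none of these ranges overlapped. In nuclei it went from 17.4 and 16.5 CPM in wild type to 72.0 and 71.4 CPM in Dnmt3a1-/-, and in cortex from 2.33, 3.02 and 2.47 CPM to 6.64, 12.4 and 12.9 CPM. The first Dnmt3a1-/- cortex library was well below the other 2 and still above every wild type cortex library. In hippocampus it was at 1.04, 1.07 and 0.546 CPM in wild type and 1.85, 2.19 and 1.64 CPM in Dnmt3a1-/-, on 36 and 91 summed reads. The log2 fold changes were 2.06 (SE 0.24) in cortex, 2.09 (SE 0.14) in nuclei and 1.08 (SE 0.31) in hippocampus. Whether the hippocampus value differs from the other 2 was not tested.

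Ppm1m, the phosphatase, was measured with 179 reads or more in every library. Its wild type levels were tight: 20.5, 19.8 and 20.4 CPM in cortex, 20.6, 20.0 and 21.2 CPM in hippocampus, and 41.4 and 36.1 CPM in nuclei. In Dnmt3a1-/- they were 38.0, 43.4 and 30.5 CPM in cortex, 37.5, 38.4 and 28.9 CPM in hippocampus, and 80.8 and 67.8 CPM in nuclei. The Dnmt3a1-/- libraries spread more widely than the wild type ones in each sample type, and library 3 was lowest in both tissues. The log2 fold changes were 0.88 (SE 0.11) in cortex, 0.73 (SE 0.11) in hippocampus and 0.94 (SE 0.15) in nuclei. Wild type cortex libraries 1 to 3 and hippocampus did not differ beyond their spread, and nuclei were higher. Wild type cortex libraries n1 to n3, at 25.0 ± 1.89 CPM, lay above hippocampus.

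Got1l1 and Mab21l1 were nearly silent in wild type samples. Got1l1 had 0.491, 0.596 and 0.112 CPM in wild type cortex and 1.87, 1.68 and 1.71 CPM in Dnmt3a1-/- cortex. In hippocampus the values were 0.346, 0.336 and 0.136 CPM against 1.41, 1.91 and 0.818 CPM. In nuclei they were 0.426 and 0.734 CPM against 4.97 and 2.65 CPM. The groups were apart in all 3 sample types, although the Dnmt3a1-/- nuclei libraries themselves differed widely. The log2 fold changes of Got1l1 were 2.00 (SE 0.34), 2.26 (SE 0.47) and 2.73 (SE 0.37) in cortex, hippocampus and nuclei. Its wild type levels in nuclei (0.580 ± 0.218 CPM), cortex libraries 1 to 3 (0.400 ± 0.254) and hippocampus (0.273 ± 0.118) did not differ beyond their spread.

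Mab21l1 had the largest fold change of the 6 in each sample type, from very few reads. In hippocampus Got1l1 was close to it, at a log2 fold change of 2.26 (SE 0.47). Wild type cortex held 0.286, 0.149 and 0.112 CPM, which are 7, 4 and 2 reads, and Dnmt3a1-/- cortex held 1.62, 1.64 and 1.67 CPM, which are 19, 43 and 44 reads. Wild type hippocampus held 0.115, 0.0561 and 0.409 CPM (1, 1 and 6 reads) and Dnmt3a1-/- hippocampus 1.23, 1.09 and 0.904 CPM (14, 16 and 21 reads). Nuclei held 0.369 and 0.565 CPM in wild type and 3.38 and 3.40 CPM in Dnmt3a1-/-, on 33 and 218 summed reads. The mutant libraries agreed closely with each other within cortex and within nuclei, while the wild type values were at the edge of what this depth can measure. The log2 fold changes were 3.09 (SE 0.33) in cortex, 2.37 (SE 0.52) in hippocampus and 2.85 (SE 0.32) in nuclei, and they rest on these small wild type counts.

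Every one of the 6 genes had all its Dnmt3a1-/- libraries above all matching wild type libraries in all 3 sample types, which the choice of the genes largely fixes. Of 13555 genes tested in all 3 comparisons, 326 (2.41%) did the same. In single comparisons the shares were 18.4% in cortex, 13.9% in hippocampus and 18.9% in nuclei. Called means an edgeR adjusted p under 0.05. Genes called higher were 8.95% of those tested in cortex, 1.69% in hippocampus and 0.214% in nuclei, and genes called lower were 8.91%, 0.827% and 0.0315%. Same-numbered cortex libraries deviated together, and with the number added as a blocking term 2398 genes were called higher and 2543 lower in cortex, beside 1426 and 1419 without it.

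In all, 6 genes (0.0443% of 13555) were called higher in all 3 comparisons, Ppm1m, Got1l1, Mab21l1, Med12 and Crb2 among them. Crb2 lay just inside, with an adjusted p of 0.0496 in hippocampus. Myo5c lay just outside, with 0.0851 in hippocampus, and so did Rxfp2 (0.0538 in hippocampus), a receptor of the relaxin family, Rec8 (0.0588 in nuclei), a cohesin subunit of meiosis, and Matn4 (0.0747 in hippocampus), a protein of the extracellular matrix. The hippocampus count turned on single libraries: 5 of the 6 genes were called, but 1 without Dnmt3a1-/- library 2, 1 without wild type library 2, 2 without wild type library 3, and 3 without Dnmt3a1-/- library 1 or 3. In nuclei all 6 were called, and calls were lost with some libraries left out, which leaves a lone sample in a group. The log2 fold change in nuclei then ran from 0.78 to 0.90 for Med12 and from 0.81 to 1.06 for Ppm1m.

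The genes were chosen for high values in the Dnmt3a1-/- cortex libraries, and wild type libraries 1 to 3 entered that choice, so a comparison with all other cortex libraries describes the levels and supports nothing. For all 6 genes the 3 Dnmt3a1-/- cortex libraries lay above each of the other 13 cortex libraries, the 5 libraries of the other mutants included, as did 981 of 15933 genes (6.16%). The gap was widest for Mab21l1, whose lowest Dnmt3a1-/- library was 3.78 times the highest other cortex library, and for Myo5c (1.91 times) and Got1l1 (1.71 times). It was 1.21 times for Crb2 and 1.08 times for Ppm1m. For Med12 it was 1.01 times, since the lowest Dnmt3a1-/- library, at 50.4 CPM, was next to a Dnmt3a1_delta_N library at 49.9 CPM. Over the 8 wild type cortex libraries Med12 ranged from 29.9 to 45.4 CPM and Got1l1, at far fewer reads, from 0.112 to 0.898 CPM.

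**Figure D3:**
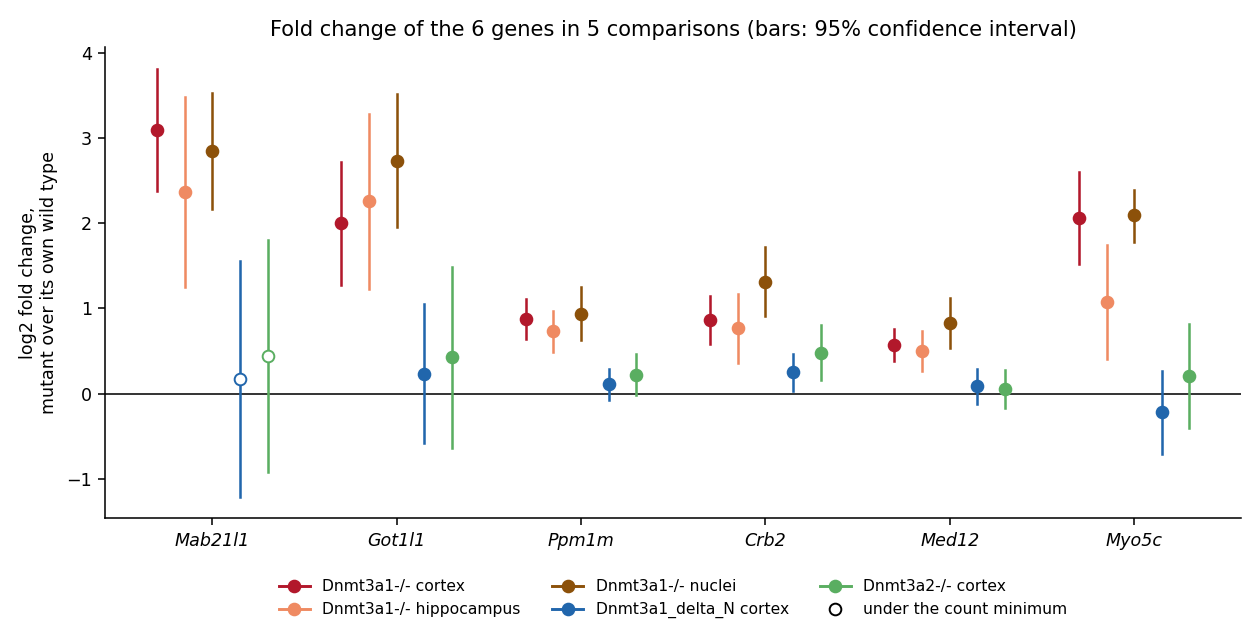
Log2 fold change of each gene over its own wild type group (y axis) in the 5 comparisons, with 95% confidence intervals from the edgeR fits. Open circles are values of a gene with too few counts for the main test. The 3 Dnmt3a1-/- values of each gene lie above 0, and the Dnmt3a1_delta_N and Dnmt3a2-/- values lie between -0.22 and 0.48.

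The Dnmt3a1_delta_N and Dnmt3a2-/- cortex libraries took no part in choosing the genes, so there the genes could be tested. In Dnmt3a1_delta_N cortex none of the 5 genes with enough counts was called higher or lower by edgeR, 1 had an unadjusted p under 0.05, and DESeq2 also called none, giving an adjusted p for 1 of the 5. Over all 15881 genes 0.0% were called higher and 0.0% lower by edgeR, 1267 had an unadjusted p under 0.05, and DESeq2 called 12 higher and 31 lower. With library number as a blocking term 33 were called higher and 86 lower, none of the 5 genes among them.

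Crb2 came nearest to a difference in Dnmt3a1_delta_N cortex. The mutant libraries had 8.76, 8.68 and 8.95 CPM of it and wild type libraries n1 to n3 had 7.80, 7.34 and 7.28 CPM, with no overlap, as for 5.74% of all genes. Its log2 fold change was 0.25 (SE 0.10, unadjusted p = 0.027, edgeR adjusted p = 0.595), higher in 3 of 3 libraries. Ppm1m was at 26.2, 25.9 and 28.2 CPM beside 25.0, 26.9 and 23.1 CPM (0.11, SE 0.08, edgeR adjusted p = 0.786). Med12 was at 49.9, 43.8 and 40.2 CPM beside 45.4, 44.4 and 37.5 CPM (0.09, SE 0.09, edgeR adjusted p = 0.873). Both overlapped with wild type. Myo5c was at 2.69, 2.14 and 2.01 CPM beside 3.48, 2.03 and 2.49 CPM (-0.22, SE 0.22, edgeR adjusted p = 0.855), and Got1l1 at 0.623, 0.981 and 0.511 CPM beside 0.898, 0.375 and 0.549 CPM (0.23, SE 0.37, edgeR adjusted p = 0.920). Mab21l1 had 11, 1 and 3 reads beside 6, 5 and 4 reads, too few for the main test.

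The intervals in Dnmt3a1_delta_N cortex give upper bounds in the main fit against wild type libraries n1 to n3. The 95% interval reached up to 0.46 for Crb2, 0.29 for Ppm1m and Med12, 0.26 for Myo5c and 1.05 for Got1l1. These bounds depend on the setting. Under alternatives that left no library out, the log2 fold change itself reached 0.29 for Ppm1m, 0.24 for Med12 and 0.57 for Got1l1. It reached 0.25 for Crb2 and -0.14 for Myo5c. In Dnmt3a1-/- cortex the intervals started at 0.58 for Crb2, 0.64 for Ppm1m, 0.38 for Med12, 1.52 for Myo5c and 1.28 for Got1l1. For these 5 genes the intervals of the mutants did not meet, which describes them and tests nothing. The Dnmt3a1-/- comparison chose the genes, which can set its intervals too high. The difference between the mutants was therefore not tested. For Mab21l1, fitted without the count minimum, the interval ran from -1.21 to 1.55 around 0.17, and in Dnmt3a1-/- cortex from 2.38 to 3.81.

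In Dnmt3a2-/- cortex, with 2 libraries a group, edgeR called none of the 5 genes tested, 1 had an unadjusted p under 0.05, and DESeq2 called none. Over all genes 1 was called higher (0.00628% of 15929) and none lower (0.0%), 457 had an unadjusted p under 0.05, and DESeq2 called 8 higher and none lower. Crb2 again had the smallest p, at 9.74 and 10.5 CPM in the mutant beside 7.68 and 6.76 CPM in wild type libraries r1 and r2. Its log2 fold change was 0.48 (SE 0.15, unadjusted p = 0.0076, edgeR adjusted p = 1.0), with both mutant libraries above both wild type libraries, as for 14.8% of all genes. Ppm1m, at 22.2 and 24.1 CPM beside 20.3 and 19.4 CPM, and Med12, at 31.1 and 32.2 CPM beside 29.9 and 30.9 CPM, had no overlap either, with log2 fold changes of 0.22 (SE 0.11) and 0.05 (SE 0.10). Myo5c was at 2.74 and 2.10 CPM beside 2.61 and 1.61 CPM, Got1l1 at 0.622 and 0.294 CPM beside 0.398 and 0.310 CPM, and Mab21l1 at 0.218 and 0.252 CPM beside 0.290 and 0.0620 CPM. Those 3 overlapped with wild type. The upper end of the interval was 0.46 for Ppm1m, 0.28 for Med12, 0.82 for Myo5c, 0.81 for Crb2 and 1.49 for Got1l1. It lay above the start of the Dnmt3a1-/- cortex interval for Crb2 and Got1l1, and below it for Ppm1m, Med12 and Myo5c. For Crb2 and Got1l1 a change as large as that start was within the error. The Dnmt3a1-/- comparison chose the genes, so setting the intervals side by side describes them and tests nothing.

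The Dnmt3a1_delta_N and Dnmt3a2-/- effects did not differ beyond their error for any of the 5 genes. The edgeR test of the difference called none of them and 0.0% of 16449 genes, none of the 5 had an unadjusted p under 0.05, and DESeq2 called 3 genes, none of the 5. For Crb2 the difference was -0.24 on the log2 scale (95% interval -0.59 to 0.11). For Myo5c it was -0.44 (-1.25 to 0.37), for Got1l1 -0.20 (-1.59 to 1.19), for Ppm1m -0.11 (-0.39 to 0.17) and for Med12 0.03 (-0.27 to 0.33). The intervals of Got1l1 and Myo5c are wide enough to hold differences of more than 1 on the log2 scale.

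Most other genes of the same families and pathways were not called. In Dnmt3a1-/- cortex 9 of 101 tested genes of the 6 pathway lists were called higher and 13 lower, beside the 8.95% and 8.91% of all genes above. In hippocampus, nuclei, Dnmt3a1_delta_N and Dnmt3a2-/- cortex edgeR called none of them. Unadjusted p-values under 0.05 numbered 15, 4, 12 and 1 in these comparisons, and DESeq2 called 2 lower in hippocampus and 1 lower in Dnmt3a1_delta_N cortex.

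Of 32 other Mediator subunits, 1 was called higher and 1 lower in Dnmt3a1-/- cortex: Med25, at 76.2 beside 60.6 CPM (log2 0.33, SE 0.07, edgeR adjusted p = 0.00974), and Med14, the backbone subunit, at 42.9 beside 59.6 CPM (-0.47, SE 0.07, edgeR adjusted p = 0.00116). Their median log2 fold change was 0.02 in cortex, 0.09 in hippocampus and -0.01 in nuclei, beside 0.01, 0.01 and -0.01 over all genes. Med12l, the paralog of Med12, was at 35.0 beside 30.4 CPM in cortex (0.20, SE 0.07, edgeR adjusted p = 0.065) and at 132 beside 137 CPM in nuclei.

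Of 20 polarity genes, 3 were called higher and 2 lower in cortex. Patj, a scaffold that joins the Crumbs complex, was at 10.5 beside 5.98 CPM (log2 0.81, SE 0.12, edgeR adjusted p = 0.000762), and Scrib at 79.2 beside 64.2 CPM. Prkcz, an atypical protein kinase C, and Lin7b fell, by 0.27 and 0.29 on the log2 scale. The list's median was 0.10 in cortex. The paralogs Crb1 and Crb3 were under 1 CPM on average in every tissue group and were not called in any comparison that tested them.

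Among class V myosins and their adaptors (15 tested), Myo5b rose in cortex from 25.4 to 39.9 CPM (log2 0.65, SE 0.08, edgeR adjusted p = 0.000372) and Myo5a, the main neuronal class V myosin, fell from 538 to 419 CPM (-0.37, SE 0.08, edgeR adjusted p = 0.00698), as did Rab27b (-0.37, SE 0.10, edgeR adjusted p = 0.0184). The other members of the class thus went in opposite directions in cortex. In nuclei, where Myo5c was 4.25 times its wild type level, Myo5b was at 45.7 beside 39.7 CPM (0.21, SE 0.15, edgeR adjusted p = 0.731) and Myo5a at 313 beside 357 CPM (-0.19, SE 0.16, edgeR adjusted p = 0.77).

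Of 17 phosphatases of the PPM family tested, Tab1, a pseudophosphatase that activates TAK1, was called higher in cortex (log2 0.30, SE 0.08, edgeR adjusted p = 0.0223) and 4 were called lower. Ppm1h was at 61.5 beside 82.8 CPM, Ppm1l at 113 beside 150 CPM and Ppm1f at 69.6 beside 81.6 CPM. Ppm1j, a close relative of Ppm1m, was at 0.418 beside 0.661 CPM and was not called (-0.66, SE 0.38, edgeR adjusted p = 0.246).

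Of 15 genes of aspartate metabolism, 3 were called higher and 4 lower in cortex. Those higher were Gpt2, the mitochondrial alanine aminotransferase (135 beside 85.2 CPM), Asl, argininosuccinate lyase (14.4 beside 9.31 CPM), and Ddo, D-aspartate oxidase (9.30 beside 5.80 CPM). Got1 was among those lower, at 107 beside 125 CPM (-0.23, SE 0.08, edgeR adjusted p = 0.0496), and Asns, asparagine synthetase, was at 31.6 beside 44.5 CPM. Got2 was at 63.4 beside 71.1 CPM and was not called (-0.16, SE 0.08, edgeR adjusted p = 0.16). Only 2 of 4 MAB21 relatives had enough counts and neither was called by either tool or had an unadjusted p under 0.05, and Mab21l2 had at most 0.123 CPM in any library.

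Of the genes next to the 6, more were called lower than higher in Dnmt3a1-/- cortex. The RefSeq gene table (assembly GRCm38, used for gene order only, since the count files use mm9) gave 28 genes that lie next to or overlap the 6. In Dnmt3a1-/- cortex 24 of them were tested, 2 (8.33%) were called higher and 5 (20.8%) lower, beside 8.95% and 8.91% of all genes, with log2 fold changes from -0.68 to 0.49 and a median of -0.10. In hippocampus 23 were tested and in nuclei 20. edgeR called none there, 6 and 1 had an unadjusted p under 0.05, and DESeq2 called 1 lower in hippocampus. Their log2 fold changes ran from -0.43 to 0.57 in hippocampus and from -0.48 to 0.22 in nuclei.

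Genes that overlap one of the 6 could share its reads if strand was not used in the counting, which the sources used here do not say. Mab21l1 lies within Nbea, which was at 164 beside 190 CPM in cortex and 216 beside 207 CPM in nuclei (not called). Crb2 overlaps Dennd1a, a regulator of endocytosis, which rose in cortex from 40.4 to 47.6 CPM (log2 0.23, SE 0.07, edgeR adjusted p = 0.0364) and was at 66.6 beside 64.5 CPM in nuclei, where Crb2 was 2.48 times its wild type level. Myo5c overlaps Gnb5, which was at 55.1 beside 61.1 CPM in cortex and 146 beside 138 CPM in nuclei (not called). Myo5a, the direct neighbour of Myo5c on one side, fell in cortex, and so did Arpp19 (-0.37, SE 0.08) and Mapk6 (-0.26, SE 0.06), both also nearby. Around Got1l1, Rab11fip1 rose in cortex (0.49, SE 0.11, edgeR adjusted p = 0.00844), while Brf2 and Adrb3 were not called. Beside Med12, Nlgn3, a synaptic adhesion protein, fell in cortex (-0.28, SE 0.07, edgeR adjusted p = 0.0143). None of the 4 genes listed around Ppm1m (Glyctk, Wdr82, Twf2 and Tlr9) was called in any comparison.

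**Figure D4:**
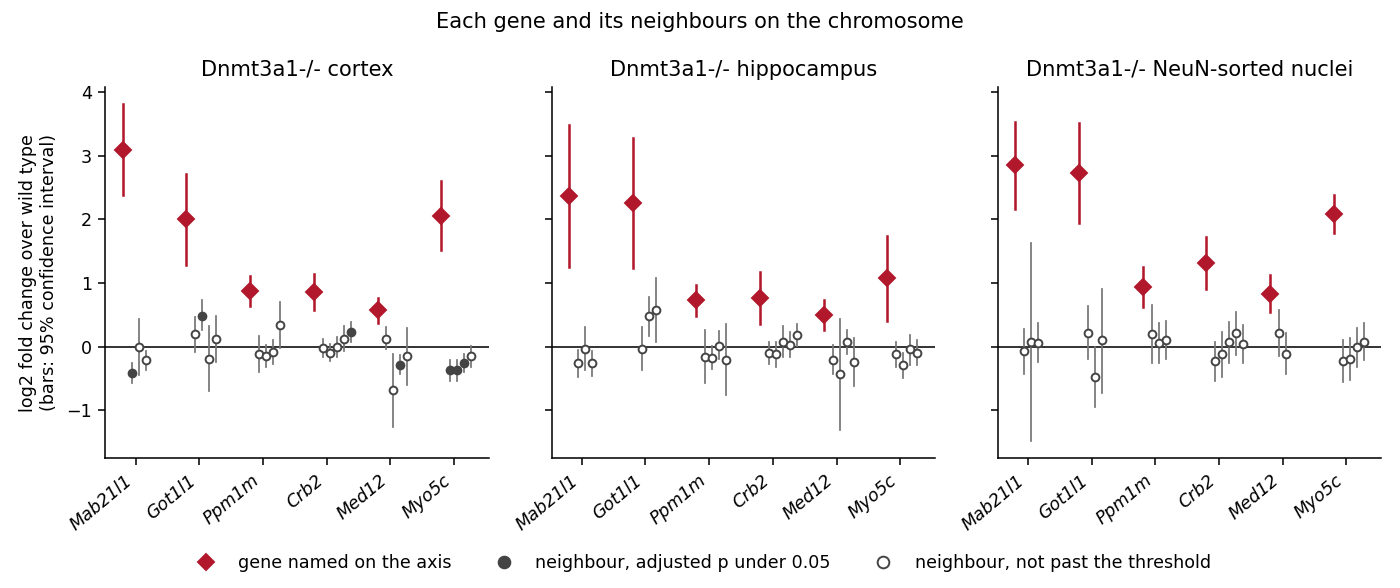
Log2 fold change over wild type (y axis) of each gene named on the x axis (red diamonds) and of its neighbouring or overlapping genes (circles to its right, filled where the edgeR adjusted p was under 0.05), with 95% confidence intervals, in the 3 Dnmt3a1-/- comparisons. The diamonds lie between 0.50 and 3.09, and the neighbours between -0.68 and 0.57.

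Deviations of log2(CPM + 0.5) from the wild type mean of the same comparison were followed across all 26 libraries. Between pairs of the 6 genes Pearson's r was 0.84 to 0.92, a description of points that share wild type means, depth and the contrasts that chose the genes. Over 13518 genes, the 3 most alike to each gene were mostly other genes of the list. From outside it came Slc2a9, a urate transporter, for Mab21l1 (r = 0.93) and Myo5c (0.92), and Aspg, an asparaginase, for Ppm1m (0.92) and Crb2 (0.88). Tbcd, a tubulin folding cofactor (0.93), and Srrm2, a splicing protein of nuclear speckles (0.92), were nearest to Med12. Tbcd rose in cortex (log2 0.39, SE 0.08, edgeR adjusted p = 0.00412) and was not called in hippocampus (0.18, SE 0.09, edgeR adjusted p = 0.291) or nuclei (0.47, SE 0.15, edgeR adjusted p = 0.276). Srrm2 rose in cortex too (0.40, SE 0.07, edgeR adjusted p = 0.00238) and was not called in hippocampus (0.29, SE 0.09, edgeR adjusted p = 0.104) or nuclei (0.54, SE 0.17, edgeR adjusted p = 0.293). Both thus passed the threshold in 1 of the 3 sample types. Tbcd, Srrm2, Slc2a9 and Aspg were picked for likeness to the 6 genes over these same libraries. Their values here, those in Dnmt3a1_delta_N cortex included, therefore describe them and test nothing. Slc2a9 rose in cortex (log2 1.25, SE 0.20, edgeR adjusted p = 0.00138) and nuclei (1.88, SE 0.32, edgeR adjusted p = 0.0175), and in hippocampus was at 6.09 beside 4.06 CPM (edgeR adjusted p = 0.127). Aspg rose in cortex (1.14, SE 0.18, edgeR adjusted p = 0.00123) and nuclei (1.47, SE 0.22, edgeR adjusted p = 0.00983) and was at 4.26 beside 2.55 CPM in hippocampus (edgeR adjusted p = 0.102). In Dnmt3a1_delta_N cortex Slc2a9 (0.06, SE 0.27), Aspg (0.14, SE 0.17), Tbcd (0.12, SE 0.09) and Srrm2 (0.00, SE 0.11) were not called.

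Markers of the choroid plexus, the secretory tissue of the brain ventricles, had high sums in some mutant tissue libraries and not in others. The 12 markers summed to 1410 to 2850 CPM in Dnmt3a1-/- cortex and 565 to 1450 CPM in wild type cortex. They summed to 222 to 2840 CPM in Dnmt3a1-/- hippocampus and 289 to 370 CPM in wild type hippocampus, 395 to 1560 beside 335 to 837 CPM in Dnmt3a1_delta_N cortex, and 412 to 2450 beside 399 to 751 CPM in Dnmt3a2-/- cortex. The sums overlapped in all 4 tissue comparisons, and the lowest Dnmt3a1-/- hippocampus library was below every wild type one. By single markers, 6 of 12 had every Dnmt3a1-/- cortex library above wild type, beside 18.4% of all genes. This held for 0 markers in hippocampus, Dnmt3a1_delta_N cortex and Dnmt3a2-/- cortex. Their median log2 fold change was 1.01 in cortex and 1.66 in hippocampus, 1.00 in Dnmt3a1_delta_N and 1.79 in Dnmt3a2-/- cortex, with none of 12, 10, 12 and 12 tested markers called by edgeR or DESeq2 and 2, 1, 0 and 0 at an unadjusted p under 0.05. In nuclei they summed to 182 to 198 CPM in Dnmt3a1-/- and 193 to 200 CPM in wild type, of which Enpp2 alone gave 166 to 185 CPM. There Ttr was at 0.119 to 8.84 CPM, Otx2 was at 0 in 2 and Cldn2 at 0 in 1 of the 4 libraries. Clic6 was at 3.35 to 6.15 CPM in nuclei and 2.98 to 7.34 CPM in wild type cortex libraries 1 to 3. Prlr was at 2.05 to 3.81 CPM in nuclei and 2.19 to 5.74 CPM in those cortex libraries, so both overlapped. Of 10 markers tested in nuclei none was called by edgeR or DESeq2, and 3 had an unadjusted p under 0.05. The part of the choroid plexus in the tissue results was not tested.

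Of the 15 marker lists, the sums of 4 separated the genotypes in Dnmt3a1-/- cortex, 2 in hippocampus and 3 in nuclei. Mural cell markers, of the smooth muscle and pericytes of vessels, were lower in both tissues, with 514 to 563 beside 617 to 894 CPM in cortex and 417 to 467 beside 505 to 594 CPM in hippocampus, and 1 of the 7 was called lower in each. Blood markers were lower in cortex, at 337 to 520 beside 521 to 822 CPM with none of 5 called by edgeR, 3 at an unadjusted p under 0.05 and 3 called lower by DESeq2, and in nuclei, at 5.81 to 7.71 beside 15.0 to 15.9 CPM with 1 of 5 called lower. Hippocampus markers were at 694 to 734 beside 811 to 855 CPM in hippocampus, with 1 of 6 called lower. Progenitor and new neuron markers were at 81.7 to 84.1 beside 87.1 to 109 CPM in cortex, with 1 of the 7 tested called higher and 3 lower. The remaining separations were narrow: Rbfox3 was at 140 to 157 beside 124 to 139 CPM in cortex, and in nuclei excitatory neuron markers were at 3170 to 3200 beside 3250 to 3270 CPM and microglia markers at 31.9 to 36.6 beside 30.3 to 30.7 CPM. Sums separated in the other mutants too. In Dnmt3a1_delta_N cortex 1 list was higher and 1 lower, and in Dnmt3a2-/- cortex 2 were higher and 1 lower. Oligodendrocyte markers were higher in both. Among single genes, 18.4% in Dnmt3a1-/- cortex, 13.9% in hippocampus and 18.9% in nuclei had every mutant library above wild type. The share with every mutant library below wild type, which the lower sums would need beside them, was not computed. The part of these cell types in the results was not tested.

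The share of uniquely aligned reads that matched no counted feature was 10.34% to 10.8% in Dnmt3a1-/- cortex beside 9.38% to 10.16% in wild type. In hippocampus it was 9.69% to 10.3% beside 8.41% to 8.74%. In nuclei it was 28.16% and 30.36% beside 29.08% and 27.99%, with no separation by genotype. The part of this share in the tissue results was not tested either.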

How the data were processed

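RNA of cortex, hippocampus and NeuN-sorted nuclei was sequenced from stranded mRNA libraries, per the labels' protocols. Per the submitters' processing notes STAR 2.5.4a and HTSeq 0.11.0 were used with mouse build mm9. The deposited values are whole-number read counts per gene, with no normalization recorded. The annotation release and the strand setting are not given in the sources used here. Lines naming no gene held 21.14% to 36.97% of reads and were left out. Symbols came from the supplied name table, which named 32620 of 37310 identifiers in cortex and nuclei files and 55394 of 55487 in hippocampus files. The other 49 samples of the series were not analysed here.

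CPM was computed over all gene counts of a library. Each mutant was compared with its own wild type series by edgeR 4.0.16 (R 4.3.3): filterByExpr (minimum count 10), TMM scaling, the robust quasi-likelihood F-test and Benjamini-Hochberg adjustment over all genes tested. The labels number the wild type cortex libraries in 3 series and do not state which mutant each belongs to, so this match follows the rule that chose the genes. Confidence intervals are at 95%. DESeq2 1.42.0 was an alternative, beside size factors by RLE, no filter on low counts (at least 1 count), a replicate block, sex as a term, other wild type controls and each library left out. The test was checked on simulated counts. The 6 genes and all lists were chosen with earlier results of these data known. Other genes were named by a rule: paralogs, 2 coding neighbours on each side and overlapping genes, the 3 genes most alike, genes called higher in all 3 Dnmt3a1-/- comparisons and the 3 nearest outside, and up to 4 called genes per pathway list by smallest p. A gene named by this rule is not reported here.

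Whether libraries of the same number pair was read from the data, by correlating how far each lay from the mean of its group, gene by gene. The correlation was 0.184 to 0.376 in Dnmt3a1-/- cortex and 0.240 to 0.419 in Dnmt3a1_delta_N cortex, which were taken as paired. It was -0.0556 to 0.272 in hippocampus, 0.297 in nuclei and 0.111 in Dnmt3a2-/- cortex, which were not. The SEs, intervals and p-values given come from fits without the pairing, in the paired comparisons too.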

Additional observations from a re-analysis of the deposited data

How the results depend on the processing

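The Dnmt3a1-/- comparisons chose the genes, so calls there under other settings describe how the choice depends on them and support nothing. Of all genes, the main fits called 8.95% higher in cortex, 1.69% in hippocampus and 0.214% in nuclei. In Dnmt3a1-/- cortex all 6 genes were called higher under all 13 alternatives. In hippocampus 5 were called, 3 by DESeq2, which gave the other 3 no adjusted p, and 1 to 5 with a library left out. In nuclei all 6 were called under the alternatives other than leaving a library out, where 1 to 6 were called. Leaving out 1 nuclei library leaves a lone sample, which is assumed to vary like the other group. In Dnmt3a1_delta_N and Dnmt3a2-/- cortex and for their difference 0 genes were called under any alternative, the fit with the replicate block (a paired analysis) included. With the replicate block 187 genes of all were called higher and 59 lower in hippocampus, 452 and 288 in nuclei, and 46 and 9 in Dnmt3a2-/- cortex, where the shared numbers were not taken as pairs. DESeq2 called 309 higher and 295 lower in hippocampus and 63 and 16 in nuclei, beside 266 and 130, and 34 and 5, by edgeR. Over 33 fold changes of single genes and 381 alternatives that gave an adjusted p, 344 kept direction and side of the threshold, 24 lost the call and 13 reversed, and the cause was not tested. DESeq2 gave no adjusted p for 7 further values, among them Mab21l1 and Got1l1 in hippocampus, which edgeR called, and these 7 are counted on neither side. Set against all 8 wild type cortex libraries, the log2 fold change in Dnmt3a2-/- cortex was -0.04 for Got1l1, -0.27 for Med12 and -0.06 for Myo5c. With a library left out it ran from -0.09 to 0.65 for Got1l1 and -0.39 to 0.02 for Myo5c in Dnmt3a1_delta_N cortex, and from -0.27 to 0.82 for Got1l1 and -0.12 to 0.60 for Myo5c in Dnmt3a2-/- cortex. The difference of effects then ran from -0.58 to 0.52 for Got1l1 and from -0.05 to 0.10 for Med12. All of these were values without a call. Depth limits Mab21l1 most, with 15 reads over 3 libraries in each arm of the Dnmt3a1_delta_N comparison.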
